A study of Mus musculus with 3 samples.

Results

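Nuclear receptors are transcription factors that bind small lipid-soluble molecules, or act without a known ligand, and switch target genes on or off. The 10 genes described here were chosen by symbol: Nr4a1, Nr4a2, Nr4a3, Nr1d1, Nr1d2, Pparg, Ppard, Rxra, Nr3c1 and Vdr. All 10 were found among the 55536 annotated genes of the deposited tables, 22028 of which are protein-coding. RNA came from the cytosol of bone marrow-derived macrophages, phagocytes grown in culture from the marrow of C57BL/6J mice, and was sequenced as total RNA after removal of ribosomal RNA. The cells had received 100 ng/ml lipid A, the part of bacterial lipopolysaccharide sensed by the receptor Tlr4, for 12 h. They were then kept without it for 12 h and taken at 0 min of a second exposure. These 3 libraries, replicates 1, 2 and 3, form a single group under a common donor identifier, and the labels give no genotype change, sex or age. No group without lipid A and no later time was analysed here, so the values describe this state of the cells and not an effect of lipid A.

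The members differ in how they are switched on. Nr4a1, Nr4a2 and Nr4a3 (Nur77, Nurr1 and Nor1) are orphan receptors with no pocket for a classical ligand, and they are known in macrophages as genes induced quickly and briefly by lipopolysaccharide. Nr1d1 and Nr1d2 encode REV-ERBα and REV-ERBβ, haem-binding repressors of the circadian clock that recruit the corepressor Ncor1. Pparg and Ppard encode sensors of fatty acids, which bind DNA as partners of the retinoid X receptor encoded by Rxra. Nr3c1 encodes the glucocorticoid receptor, held in the cytoplasm by chaperones until a steroid binds, and Vdr encodes the vitamin D receptor, another partner of the retinoid X receptor.

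The stretches before the start sites of the NR4A genes are shown because these paralogs share a sequence feature that the choice by symbol did not use. RefSeq promoter windows (GRCm38.p6) were found for 9 of the 10 members, 12 windows in all, with none for Nr3c1. Capitals mark TGACG, the core of the cyclic AMP response element, or its reverse complement. Each sequence runs 5′ to 3′ on the gene's strand and ends before the annotated exon.
Nr4a1: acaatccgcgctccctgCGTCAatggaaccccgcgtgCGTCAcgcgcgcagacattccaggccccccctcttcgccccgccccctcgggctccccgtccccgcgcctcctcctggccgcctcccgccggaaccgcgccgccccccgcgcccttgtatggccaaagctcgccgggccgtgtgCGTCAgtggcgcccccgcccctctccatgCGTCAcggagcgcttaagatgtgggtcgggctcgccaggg
Nr4a2: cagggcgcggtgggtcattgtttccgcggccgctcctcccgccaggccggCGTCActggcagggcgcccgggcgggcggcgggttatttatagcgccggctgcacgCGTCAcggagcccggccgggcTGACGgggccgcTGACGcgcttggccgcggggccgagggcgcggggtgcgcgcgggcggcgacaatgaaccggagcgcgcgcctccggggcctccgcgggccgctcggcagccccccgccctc
Nr4a3: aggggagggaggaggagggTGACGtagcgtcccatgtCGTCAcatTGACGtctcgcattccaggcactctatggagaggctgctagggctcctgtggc
They lie at chr15:101266596-101266845 on the plus strand, chr2:57124004-57124253 on the minus strand and chr4:48045055-48045152 on the plus strand. The printed stretches hold 4, 4 and 3 matches. Over all 250 bases before the start, the windows of Nr4a1, Nr4a2 and Nr4a3 hold 4 matches each, and the other windows of the members hold 0. Of 32851 promoters searched over the same length on both strands, 17.8% hold TGACG at least once and 0.137% hold it 4 or more times. The full palindrome TGACGTCA, which contains TGACG and is found in 1.55% of promoters, is in none of the 12 windows. A match describes letters only and is no evidence of binding. The motifs marked here and in the next set were picked from 8 searched after their matches had been seen. Of the Nr4a3 transcripts measured below, Nr4a3-203, which led in 2 of 3 libraries, starts elsewhere. Those at the printed stretch held 28.2%, 26.0% and 51.1% of Nr4a3. In replicates 1 and 2 this share was Nr4a3-204, a processed transcript with no annotated coding sequence, from 1 and 2 counts. In replicate 3 it was the coding Nr4a3-201, from 13 counts.

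The stretches before the starts of Nr1d2 and Pparg are shown because Nr1d2 carries most of the REV-ERB RNA and because Pparg has several starts whose use is described below. In Nr1d2 the capitals mark AGGTCA, the core motif of many nuclear receptors and of the site through which REV-ERBs act. In Pparg they mark the CCAAT box or its reverse complement.
Nr1d2: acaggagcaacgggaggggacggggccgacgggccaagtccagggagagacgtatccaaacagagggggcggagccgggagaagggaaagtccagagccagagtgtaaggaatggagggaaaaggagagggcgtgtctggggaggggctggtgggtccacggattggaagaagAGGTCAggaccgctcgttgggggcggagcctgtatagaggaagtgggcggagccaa
Pparg start 1: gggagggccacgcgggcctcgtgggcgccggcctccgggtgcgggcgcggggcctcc
Pparg start 2: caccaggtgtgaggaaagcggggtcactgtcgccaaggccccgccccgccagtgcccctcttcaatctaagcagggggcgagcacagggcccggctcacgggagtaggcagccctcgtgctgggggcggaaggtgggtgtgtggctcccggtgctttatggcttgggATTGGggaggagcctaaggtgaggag
Pparg start 3: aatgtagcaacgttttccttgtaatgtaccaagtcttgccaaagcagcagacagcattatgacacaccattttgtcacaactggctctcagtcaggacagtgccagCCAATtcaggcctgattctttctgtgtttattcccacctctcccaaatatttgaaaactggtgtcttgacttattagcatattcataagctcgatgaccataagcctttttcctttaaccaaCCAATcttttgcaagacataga
The Nr1d2 stretch is chr14:18239128-18239356 on the minus strand. The Pparg stretches are chr6:115360894-115360950, chr6:115362099-115362291 and chr6:115421816-115422065 on the plus strand. AGGTCA is found once in the Nr1d2 window, once each in the first and second Pparg windows outside the printed bases, and in 14.0% of all promoters. The second Rxra window also holds AGGTCA, and there 1 match is part of AAAGGTCA, the site bound by NR4A receptors as monomers, which 1.34% of promoters hold. That window is the start of Rxra-202, which held 0%, 0% and 0% of Rxra from alignments and 0%, 0% and 1.43% directly from reads. The first Rxra window, the start of the leading Rxra-201, holds no AGGTCA. In the printed Pparg stretches CCAAT is found 0, 1 and 2 times, and 33.8% of all promoters hold it. The remaining motifs searched were the E-box CACGTG (6.02% of promoters), the GC box GGGCGG (32.7%) and TATAAA (12.4%). No window of any member holds CACGTG, those of the REV-ERB genes included.

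Expected counts assigned to genes totalled 28981178 in replicate 1, 53119941 in replicate 2 and 46783133 in replicate 3. An expected count is the estimated number of reads of a gene, and 3 counts, the most that a count of 0 allows, correspond to 0.104, 0.0565 and 0.0641 CPM, counts scaled to a common library total. All 12 macrophage markers were at 1 TPM or more in every library. Of 46 markers of neutrophils, lymphocytes, dendritic, mast, stromal, fat and red cells, 3 reached that level (S100a8, S100a9 and Il7r), and Ly6g, Cd79a, Adipoq and Hba-a1 had no counts. Replicate 3 stood apart in RNAs that stay in the nucleus: Malat1 was at 157.74, 91.05 and 1343.21 TPM and Neat1 at 16.82, 10.44 and 91.44 TPM. TPM is a level corrected for transcript length and given as a share of all RNA in the table. Genes of the 7SL RNA took 56.9%, 65.3% and 52.5% of that total and protein-coding genes 31.0%, 27.2% and 31.6%. Levels in TPM therefore move with the 7SL share, and differences between libraries were tested on counts scaled by the trimmed mean of M-values (TMM).

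By TPM, the 10 receptors fell into 2 sets separated by a wide gap. Nr3c1 (18.1 ± 2.82 TPM, SD, n = 3), Rxra, Nr1d2, Pparg and Ppard (5.36 ± 0.924 TPM) were at 1 TPM or more in every library. Nr1d1 (0.423 ± 0.0850 TPM), Nr4a2, Nr4a1, Nr4a3 and Vdr were below 1 TPM in every library. The deposited posterior mean, another estimate of the level, put Nr4a2 nearer the higher set, at 3.29, 1.15 and 1.75 TPM. Ppard was at 5.28, 4.87 and 6.66 TPM by that estimate. The 5 of 10 members at 1 TPM or more stand beside 41.2% of all protein-coding genes, so the share is near that of genes in general. The median over those 9074 protein-coding genes was 8.78 TPM, below Nr3c1 and Rxra and above the other members. The scale matters for the highest members under the threshold. With TPM rescaled to protein-coding genes alone, Nr1d1 was at 1.65, 1.25 and 1.33 and Nr4a2 at 1.13, 1.10 and 1.33, so 7 members passed. Rescaling raises every protein-coding gene with a TPM above 0, and the share of all of them passing on that scale was not computed. Summed over the members, the level was 54.9, 44.2 and 59.0 TPM in replicates 1, 2 and 3. In bulk RNA, fewer cells with a transcript and less of it per cell cannot be told apart. The plot of levels by library shows the gap between Ppard and Nr1d1, and the plot of ranks places each member among the protein-coding genes.

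**Figure D1:**
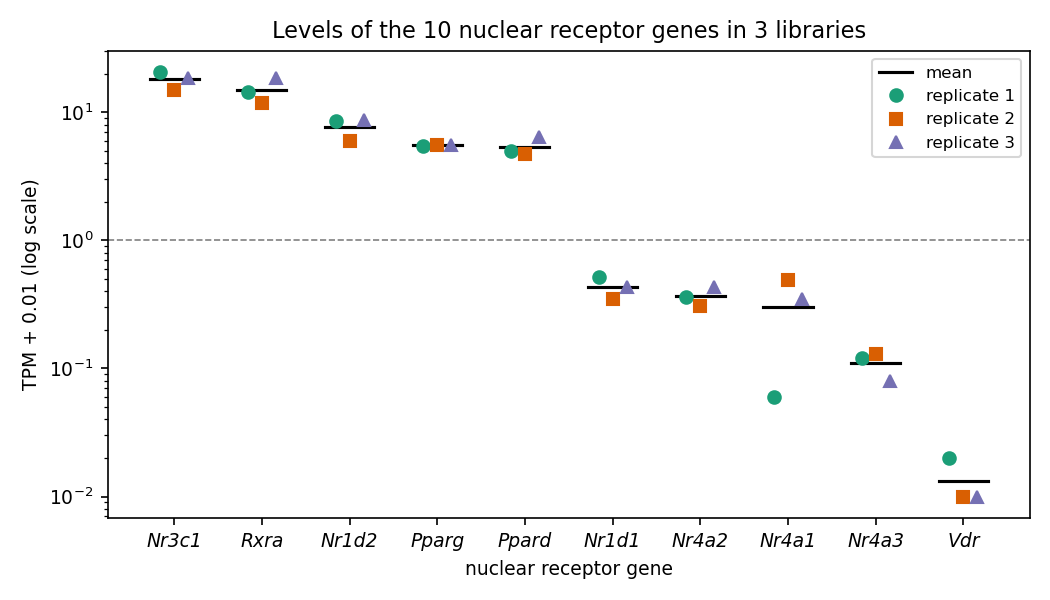
TPM + 0.01 (log axis) of the 10 nuclear receptor genes, ordered by mean. Points are the 3 libraries, bars their mean and the dashed line 1 TPM. Nr3c1 to Ppard lie between 4.71 and 20.60 TPM and Nr1d1 to Vdr at 0.51 TPM or less.

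**Figure D2:**
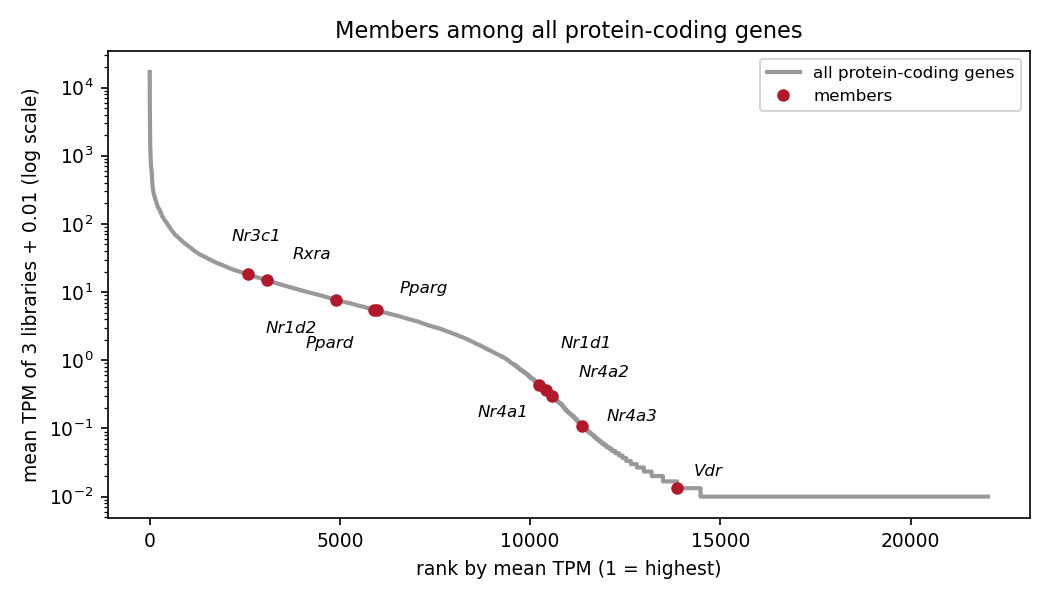
Mean TPM + 0.01 of 3 libraries (log axis) against rank for all 22028 protein-coding genes (line), with the 10 members as points. Nr3c1 ranks 2594 and Rxra 3090, while Vdr ranks 13864 on the steps near 0.

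Of 9 pairs of neighbours in the order of levels, 4 did not overlap between their ranges over libraries: Rxra above Nr1d2, Nr1d2 above Pparg, Ppard above Nr1d1 and Nr4a3 above Vdr. Each of these held in 3 of 3 libraries, with p = 0.25 in an exact two-sided sign-flip permutation test, the smallest value that 3 libraries allow (Benjamini-Hochberg adjusted p = 0.562). The order came from the means of these same libraries, and ranges that do not overlap must give this p. The test therefore cannot support the order. The ranges overlapped for Nr3c1 and Rxra, Pparg and Ppard, Nr1d1 and Nr4a2, Nr4a2 and Nr4a1, and Nr4a1 and Nr4a3 (exact p = 0.50 to 0.75). Nr1d1 and Nr4a2, which are not neighbours of Nr4a3, lay above it in every library. Nr4a3 above Vdr did not hold for every quantification: the deposited posterior mean TPM placed Vdr (0.58, 0.25 and 0.34) above Nr4a3 (0.18, 0.14 and 0.13).

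The NR4A genes were all low. Nr4a1 (chr15:101254269-101274795, plus strand) was at 0.05, 0.48 and 0.34 TPM in replicates 1, 2 and 3, from 5, 105 and 54 counts. By these values replicate 1 was far below the other libraries. The deposited posterior mean of Nr4a1 was closer together, at 0.29, 0.58 and 0.48 TPM. The credibility bounds of replicate 1, 0.0466 to 0.703 TPM, covered the TPM of replicates 2 and 3. Estimated directly from reads, Nr4a1 was at 0.0409, 0.234 and 0.0918 TPM, with replicate 1 again the lowest. Nr4a2 (chr2:57106830-57124003, minus strand) was at 0.35, 0.30 and 0.42 TPM, from 53, 93 and 87 counts. Its libraries lay close together in TPM, but not in the posterior mean given below. Nr4a3 (chr4:48045153-48086447, plus strand) was lower still at 0.11, 0.12 and 0.07 TPM, from 20, 43 and 24 counts. Among protein-coding genes they ranked 10579, 10405 and 11359. Nr4a2 exceeded Nr4a3 in 3 of 3 libraries, by 3.18, 2.50 and 6.00 times. Against Nr4a1 its ratio was 7.0, 0.625 and 1.24, with a direction that differed between libraries.

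Nr4a1 was the member called as differing between the libraries. On the TMM scale it had 0.179, 1.99 and 1.11 CPM, and the ratio of the highest to the lowest library, with 0.5 counts added, was 10.1. A chi-square test of homogeneity over the 13636 genes with a mean of 10 or more counts gave a Benjamini-Hochberg adjusted p of 7.29e-11. This test, here and for every gene below, sets the libraries against counting error alone and takes no account of the usual spread between replicates, so a call says only that libraries differed by more than counting error. Replicate 2 exceeded replicate 1 by 11.1 times with an exact 95% counting interval of 4.61 to 34.9. Replicate 3 exceeded it by 6.17 times (2.49 to 19.8). Without replicate 1 the ratio was 1.79 and Nr4a1 no longer passed the minimum ratio of 2. The labels call the libraries biological replicates under a common donor identifier, but do not say that they came from separate animals. The p-values here therefore measure differences among 3 libraries that may be technical.

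Nr4a2 and Nr4a3 did not pass this test. The highest over the lowest library was 1.08 for Nr4a2 and 1.64 for Nr4a3, with adjusted p of 0.915 and 0.159 in the chi-square test. Of 9 members tested, 1 was called at an adjusted p under 0.05 and a ratio of at least 2, beside 16.2% of all genes tested and 8.12% of protein-coding genes tested. Of the 2203 genes called, 1545 were highest in replicate 3. Without that library 4.81% of all genes tested were called, and Nr4a1 was still the 1 member called. With so few counts, the isoforms of the NR4A genes were poorly measured. Nr4a1-201, which encodes 601 residues, held 100%, 94.9% and 100% of Nr4a1 in the tables made from alignments, and 72.5% on average in those made directly from reads. Nr4a3-203 held 71.8%, 74.0% and 48.9% of Nr4a3, and in replicate 3 Nr4a3-201 led with 51.1%. For Nr4a2 the deposited posterior mean, another estimate of the level, was higher at 3.29, 1.15 and 1.75 TPM, with an upper credibility bound of 9.05 TPM in replicate 1.

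Immediate early genes, which respond with the NR4A genes to many stimuli, were measured beside them. Of 15 listed, 8 were at 1 TPM or more in every library, with a median of 2.37 ± 0.361 TPM (SD, n = 3). The highest were Atf3 (88.2 ± 19.5 TPM), a stress-induced repressor of inflammatory genes, and the AP-1 subunits Junb (38.6 ± 2.72 TPM) and Jun (26.9 ± 2.27 TPM). The lowest were the Fos relatives Fosb (0.0633 TPM) and Fosl1 (0.00333 TPM). Of 14 tested between libraries, 4 were called, Egr1, Egr2, Fosb and Myc, all highest in replicate 2 and lowest in replicate 1. Egr2, a zinc finger factor, had 0.286, 2.03 and 1.70 CPM on the TMM scale. Fosb had 0, 36 and 21 counts, and Egr1 3.54, 7.52 and 6.00 CPM. Atf3, Junb and Jun were highest in replicate 1, with ratios of 1.68, 1.10 and 1.10. Thus the low Nr4a1 of replicate 1 stood beside low Egr2 and Fosb but not beside low Atf3, Junb or Jun. The neutrophil marker S100a9 was also called and lowest in replicate 1, at 2.58, 5.41 and 5.63 TPM. The 8 neutrophil markers summed to 5.03, 8.85 and 9.84 TPM, with 2 of 8 at 1 TPM or more in every library and the defining marker Ly6g at 0 counts. The part of these genes in the Nr4a1 result was not tested.

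Members differed in their spread between libraries. The coefficient of variation of the TMM-scaled CPM was 0.829 for Nr4a1, 0.246 for Nr4a3 and 0.226 for Nr1d1, all from few counts. It was 0.171 for Nr3c1, 0.160 for Nr1d2, 0.115 for Rxra, 0.101 for Pparg, 0.0565 for Ppard and 0.0406 for Nr4a2. The median over tested protein-coding genes was 0.124, below the values of Nr4a1, Nr4a3, Nr1d1, Nr3c1 and Nr1d2. With no minimum ratio, 6 of the 9 members tested had an adjusted p under 0.05 in the chi-square test, beside 75.6% of all genes tested, so this count is no more than the background. They were Nr4a1 and the well-counted Nr3c1, Rxra, Nr1d2, Pparg and Ppard. The plot of ratio against count shows Nr4a1 as the only member tested above a ratio of 2.

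**Figure D3:**
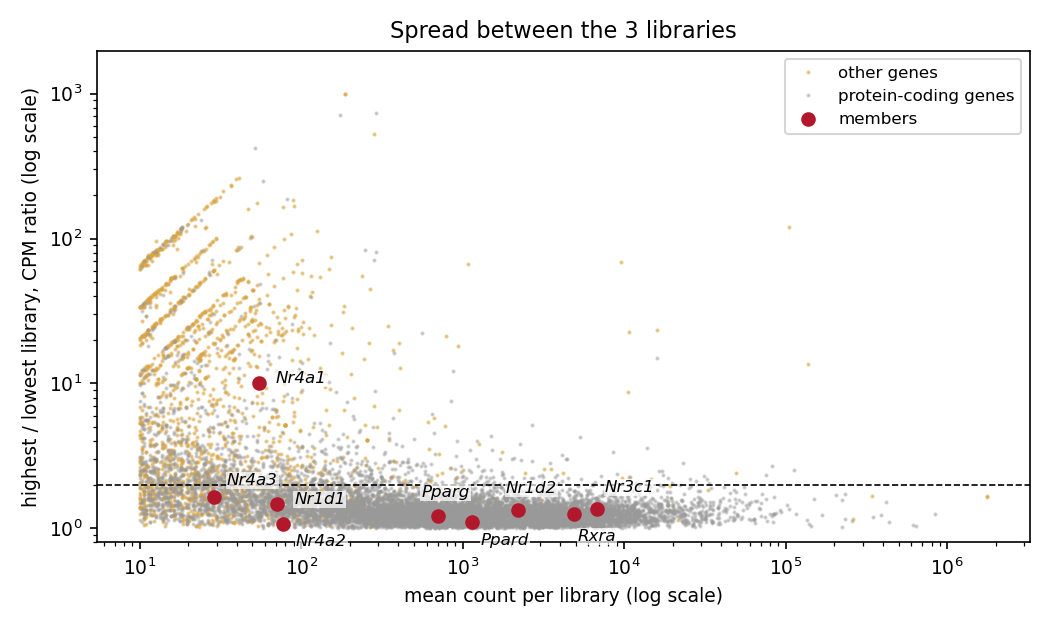
Ratio of the highest to the lowest library in TMM-scaled CPM against mean count per library, both on log axes, for 13636 genes tested. Members are red, protein-coding genes grey, other genes yellow, and the dashed line marks a ratio of 2. Nr4a1 lies above the line at 10.1 and the other 8 members tested lie below it.

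Between the REV-ERB paralogs, the RNA was mostly Nr1d2. Nr1d2 (chr14:18204054-18239127, minus strand) was at 8.47, 5.94 and 8.61 TPM, from 1742, 2440 and 2439 counts, and was lowest in replicate 2. Nr1d1 (chr11:98767932-98775333, minus strand) was at 0.51, 0.34 and 0.42 TPM, from 60.85, 78.01 and 75.09 counts, and was also lowest in replicate 2. Nr1d2 exceeded Nr1d1 by 16.6, 17.5 and 20.5 times, a log2 ratio of 4.18 ± 0.16 (SD, n = 3), and their ranges did not overlap. In the table made directly from reads the log2 ratio was 4.07 ± 0.03. The exons of Nr1d1 overlap those of Thra, the thyroid hormone receptor α gene on the opposite strand, over 263 bases. None of the sources used here states whether strand was used in counting, so reads from this overlap cannot be assigned to either gene by position alone. Thra had 230, 465 and 509 counts, so Nr1d1 is the less certain of the pair.

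Across libraries Nr1d2 ranged 1.35-fold on the TMM scale, with 62.4, 46.2 and 49.9 CPM. Its adjusted p in the chi-square test was 9.32e-21, but its ratio was under 2 and near the median of 1.27 over tested protein-coding genes. Nr1d1 had 2.18, 1.48 and 1.54 CPM, a ratio of 1.48 with an adjusted p of 0.0598. The full-length transcript Nr1d2-201, encoding 576 residues, held 95.5%, 94.7% and 86.8% of Nr1d2. Transcripts annotated as retaining an intron held 3.03%, 3.67% and 12.7%, and 6.30%, 6.95% and 21.2% in the tables made from reads. Replicate 3 was the highest in both, and it was also the library with the most Malat1 and Neat1. Of 7 listed nuclear-retained RNAs, 5 were tested, and all 5 were called and highest in replicate 3, with a listed sum of 176, 103 and 1441 TPM. The list members Meg3 and Tsix had no counts. Their part in the Nr1d2 result was not tested. Without replicate 3 the Nr1d2-201 share was 95.1%, against 92.3 ± 4.80% with it.

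The other clock genes gave a mixed picture around Nr1d2. Of 20 listed, 12 were at 1 TPM or more in every library, with a median of 2.19 ± 0.0881 TPM. Among the highest were the kinase gene Csnk1d (25.4 ± 3.58 TPM) and the clock output factor Dbp (12.7 ± 4.26 TPM). Among the lowest was Hlf (0.0133 TPM). Arntl, which encodes the clock activator BMAL1 and is a classical target of REV-ERB repression, was at 1.34, 1.14 and 1.69 TPM. Its partner Clock was at 3.92, 3.61 and 4.59 TPM. Of 18 tested between libraries, 2 were called, Npas2 and Bhlhe40, both highest in replicate 2. Npas2 rested on few counts, 6, 45 and 4. Nr1d2 in the same libraries was lowest in replicate 2. On the TMM scale Arntl (6.05, 5.59 and 6.33 CPM), Csnk1d and Dbp were lowest in replicate 2 as well, while Clock was highest there.

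Pparg and Ppard were at almost the same level. Pparg (chr6:115360951-115490399, plus strand) was at 5.42, 5.54 and 5.56 TPM, from 468, 933 and 707 counts, with its libraries close together in TPM. Ppard (chr17:28232700-28301474, plus strand) was at 4.96, 4.71 and 6.42 TPM, from 706, 1368 and 1374 counts, and was highest in replicate 3. Pparg over Ppard was 1.09, 1.18 and 0.866, a log2 ratio of 0.05 ± 0.23 (SD, n = 3), so neither paralog was higher beyond the spread. Ppara, the PPAR of liver and heart, had no counts in any library. On the TMM scale Pparg had 16.8, 17.7 and 14.5 CPM, a 1.22-fold range (chi-square adjusted p = 4.63e-04), and Ppard 25.3, 25.9 and 28.1 CPM, a 1.11-fold range (adjusted p = 0.0397). Neither reached the minimum ratio.

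The Pparg starts printed above were used unequally. Transcripts from the first start (Pparg-202, 475 residues) held 76.3%, 49.6% and 67.6% of Pparg in the tables made from alignments. Those from the second start held 22.0%, 39.3% and 28.2%, nearly all as Pparg-204, which also encodes 475 residues. The third start gives Pparg-201, the longer protein of 505 residues known as PPARγ2 and best known from fat cells, and it held 0%, 11.2% and 3.22%. The first start led in every library and the third was the lowest in every library. The fat cell genes Adipoq and Plin1 were at 0 and 0.0133 TPM. In the tables made directly from reads the first start held 94.5%, 80.3% and 62.2%, the second 3.80%, 10.9% and 30.3%, and the third 0%, 2.73% and 2.72%. Of the 30.3% in replicate 3, 15.5% was Pparg-203, a short transcript with a retained intron. The shares of the first and second starts thus depended on the quantification, while the third start held 11.2% or less in every library of either. Most of Ppard came from Ppard-201 (440 residues), at 94.9%, 97.1% and 93.0%, and at 89.7%, 93.9% and 74.7% in the tables made from reads. Ppard transcripts with a retained intron held 5.11%, 2.88% and 7.01%, and 10.3%, 6.13% and 12.5% in those made from reads.

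Genes regarded as PPAR targets spanned a far wider range than the receptors. Of 13 listed, 10 were at 1 TPM or more in every library, with a median of 20.8 ± 1.01 TPM. The highest were the fatty acid-binding protein gene Fabp5 (1105 ± 156 TPM), the lipid droplet coat gene Plin2 (176 ± 11.0 TPM) and the mitochondrial carrier gene Ucp2 (157 ± 21.5 TPM). Among the lowest was Pdk4 (0.00333 TPM), a kinase that limits glucose oxidation. Of 11 tested, 2 were called between libraries: the fatty acid receptor gene Cd36 at 19.78, 38.36 and 47.07 TPM and the lipase gene Lpl at 60.69, 130.29 and 124.20 TPM. Both were lowest in replicate 1, in which Pparg and Ppard were at 5.42 and 4.96 TPM. The targets not called went both ways on the TMM scale. Fabp5 (1626, 1517 and 1085 CPM), Plin2, Ucp2 and Fabp4 were highest in replicate 1. Acadvl, Acaa2 and Angptl4, the last from few counts, were lowest there, as was Ppard.

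Rxra was the most abundant member but for Nr3c1. Rxra (chr2:27676440-27762957, plus strand) was at 14.42, 11.71 and 18.57 TPM, from 3231, 5254 and 6128 counts, lowest in replicate 2 and highest in replicate 3. It exceeded Pparg by 2.66, 2.11 and 3.34 times and Ppard by 2.91, 2.49 and 2.89 times, so it was higher than either partner in 3 of 3 libraries. On the TMM scale it had 116, 99.5 and 125 CPM, a 1.26-fold range that passed the chi-square test (adjusted p = 2.82e-33) but not the minimum ratio. A single transcript, Rxra-201 (467 residues), held 99.7%, 99.2% and 99.2% of Rxra. Its paralog Rxrb was at 7.63 ± 1.19 TPM and Rxrg had no counts.

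Other partners of the retinoid X receptor include the liver X receptors, which respond to oxidised cholesterol. Nr1h3 (LXRα) was at 41.52, 28.49 and 36.96 TPM and Nr1h2 (LXRβ) at 16.12, 18.39 and 21.04 TPM. Nr1h3 was thus above Rxra and above all 10 members in every library. Of 9 listed targets of the LXR and retinoid X receptor pair, 8 were at 1 TPM or more in every library, with a median of 18.1 ± 3.44 TPM. Apoe (1260 ± 468 TPM), Pltp (164 ± 60.4 TPM) and Abcg1 (78.3 ± 15.9 TPM), which act in cholesterol and phospholipid transfer, were the highest. Mylip (11.7 ± 1.20 TPM), a ligase that lowers the LDL receptor, and Scd1 (2.53 ± 2.77 TPM), a fatty acid desaturase, were the lowest. All 9 were tested between libraries and 2 were called, Scd1 with 0.63, 5.70 and 1.25 TPM and Apoc2 with 18.06, 6.97 and 11.24 TPM. With DESeq2 size factors 3 were called, Pltp (203.21, 94.60 and 194.62 TPM), whose ratio on the TMM scale lay just under 2, being added.

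The glucocorticoid receptor gene Nr3c1 had the highest mean level of the members. It was at 20.60, 15.03 and 18.55 TPM, from 5406, 7958 and 6928 counts, and ranked 2594 among protein-coding genes. Its ratio to Rxra was 1.43, 1.28 and 0.999, so it was higher in 2 of 3 libraries and level with Rxra in replicate 3. On the TMM scale it had 194, 151 and 142 CPM, a 1.36-fold range with an adjusted p of 8.43e-70 in the chi-square test. The order of replicates 2 and 3 differed between the TPM and TMM scales. The gene spans chr18:39410545-39519421 on the minus strand.

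Several Nr3c1 transcripts were present at once. Nr3c1-204, with 792 residues, held 62.5%, 59.1% and 60.8%. Nr3c1-203, with the same coding length from another start, held 23.2%, 26.5% and 20.3%, and Nr3c1-208, with 488 residues, held 7.76%, 10.4% and 14.4%. In the tables made directly from reads Nr3c1-204 still led in each library but held 40.5% on average, and Nr3c1-203 held 33.7%. The plot of transcript shares sets both quantifications side by side for Pparg, Nr3c1 and Nr1d2.

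**Figure D4:**
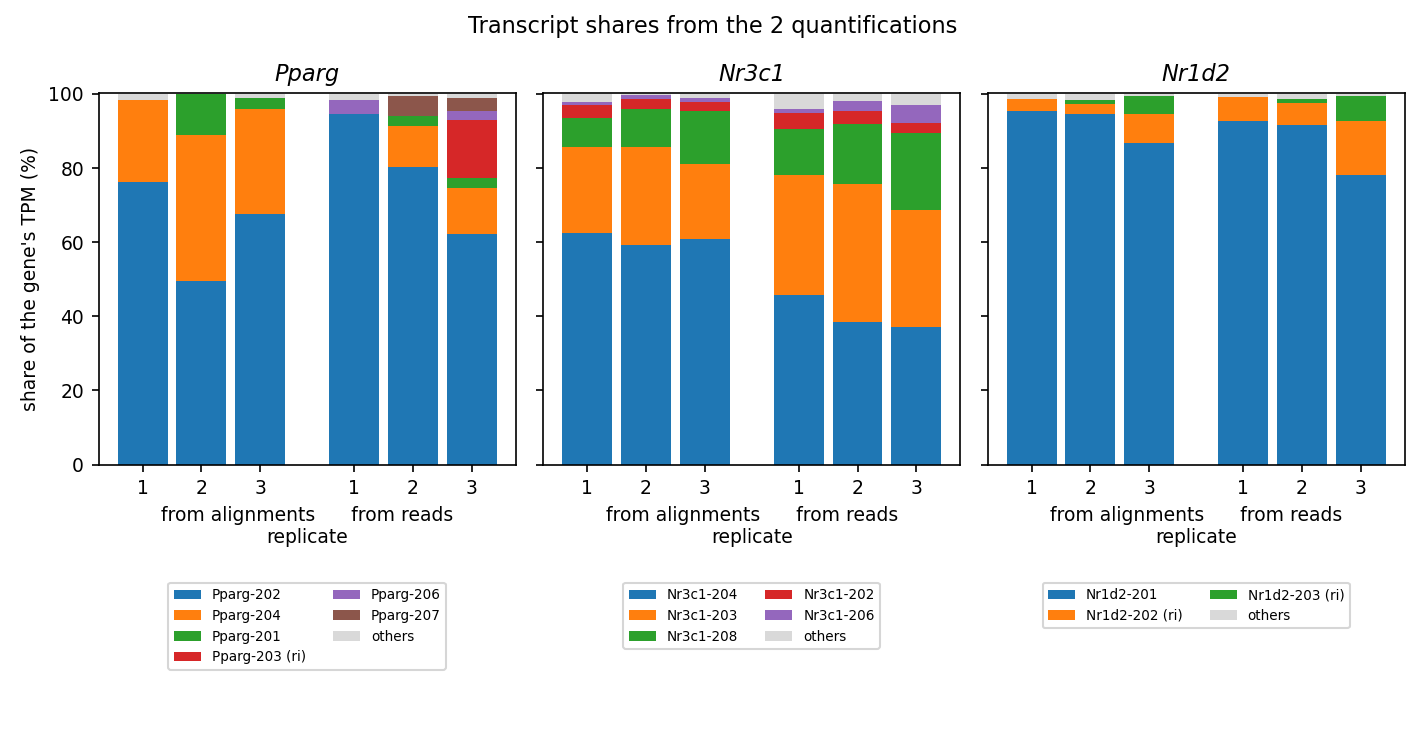
Share of the TPM of Pparg, Nr3c1 and Nr1d2 held by each transcript, in percent, for replicates 1, 2 and 3 from the tables made from alignments and from those made directly from reads; (ri) marks a retained intron and grey the transcripts under 3% everywhere. Pparg-202, Nr3c1-204 and Nr1d2-201 lead in each bar, and retained introns of Nr1d2 are widest in replicate 3.

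The machinery that holds the glucocorticoid receptor ready was abundant. All 7 chaperone genes listed were at 1 TPM or more in every library, with a median of 34.9 ± 2.70 TPM, and the chi-square criteria called 0 of the 7 tested between libraries, with TMM or with DESeq2 size factors. All 7 had an unadjusted p under 0.05 at ratios below 2. Hspa8 (581 ± 51.0 TPM), Hsp90ab1 (242 ± 22.9 TPM) and Hsp90aa1 (75.0 ± 4.76 TPM) were the highest. The immunophilins Fkbp4 (8.22 ± 1.24 TPM) and Fkbp5 (1.52 ± 0.396 TPM) were the lowest. Fkbp5 is also a classical glucocorticoid target. Of 11 such targets, 6 were at 1 TPM or more in every library, with a median of 1.55 ± 0.354 TPM. Anxa1 (73.7 ± 5.05 TPM), Tsc22d3 (48.4 ± 8.86 TPM, the gene of GILZ) and Sgk1 (12.9 ± 1.76 TPM) were the highest, and Cd163 (0.0367 TPM), a scavenger receptor, and Zbtb16 (0.010 TPM) the lowest. Of 10 tested, Il1r2 alone was called, with 21, 15 and 13 counts and its highest level in replicate 1.

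Vdr was at the limit of detection. Vdr (chr15:97854425-97910630, minus strand) had 2, 2 and 1 counts, 0.01, 0.00 and 0.00 TPM. The deposited posterior mean was higher, at 0.58, 0.25 and 0.34 TPM. The 95% Wilson intervals were 0.0189 to 0.252, 0.0103 to 0.137 and 0.00377 to 0.121 CPM, and cover counting error only. It ranked 13864 of 22028 protein-coding genes and was not tested between libraries. The vitamin D enzyme Cyp24a1, a sensitive target of the receptor, had no counts, and Cyp27b1, which makes the active hormone, had 0, 0 and 1 counts. Of 15 enzymes listed that make or break down ligands of nuclear receptors, Cyp27a1, which makes oxysterols, was the only 1 at 1 TPM or more in every library (4.59 ± 2.11 TPM). Next came Rdh10 (0.547 ± 0.0907 TPM) and Cyp2r1 (0.507 ± 0.0404 TPM), which act on retinol and vitamin D, and lowest was Cyp24a1, after Cyp26b1, Cyp27b1 and Aldh1a1, tied at 0.00333 TPM. Of 5 tested, 2 were called: Ch25h, highest in replicate 1, and Dhrs9, highest in replicate 2.

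Beyond the members, 11 of 39 other nuclear receptors were at 1 TPM or more in every library and 17 had no counts. After Nr1h3 and Nr1h2 came Esrra (11.2 ± 1.73 TPM), a regulator of mitochondrial genes, Rxrb, and the retinoic acid receptors Rara (5.10 ± 1.08 TPM) and Rarg (4.56 ± 1.16 TPM). Nr2c2 (4.39 ± 0.958 TPM), Thra (2.63 ± 0.687 TPM), Nr2f6 (2.43 ± 0.497 TPM), Esr1 (2.37 ± 0.442 TPM) and Nr2c1 (2.22 ± 0.189 TPM) completed them. Rora, which competes with REV-ERBs for their sites, was at 1.01, 1.08 and 0.91 TPM. Of 15 tested, Nr3c2, the mineralocorticoid receptor, was called, with 10, 12 and 69 counts and its highest level in replicate 3. In the plot of the receptor family, Nr3c1 and Rxra follow the 2 liver X receptors, and the NR4A genes fall below Rora.

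**Figure D5:**
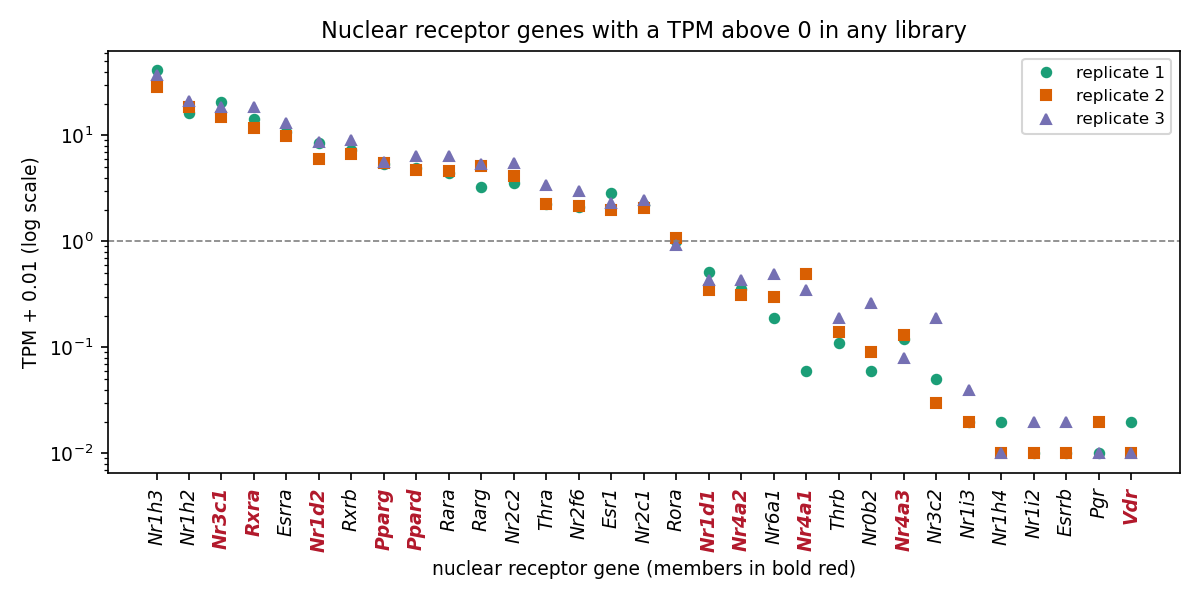
TPM + 0.01 (log axis) of the 31 nuclear receptor genes with a TPM above 0 in any library, ordered by mean, with members in bold red; points are the 3 libraries and the dashed line marks 1 TPM. Nr1h3 is the highest at 28.49 to 41.52 TPM, and all members but Nr3c1, Rxra, Nr1d2, Pparg and Ppard lie under the line.

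The cofactors through which these receptors act were present. All 10 corepressor genes were at 1 TPM or more in every library, with a median of 9.64 ± 0.864 TPM. Ncor1 (47.6 ± 6.58 TPM) and Tbl1xr1 (16.5 ± 1.5 TPM), which belong to one complex, were among the highest, and Nrip1 (4.15 ± 0.987 TPM) and Lcor (3.11 ± 0.976 TPM) the lowest. Of 12 coactivators, 11 were at that level, with a median of 10.4 ± 1.88 TPM. The acetyltransferase gene Ep300 (29.7 ± 8.81 TPM), Ncoa3 (27.9 ± 5.16 TPM) and the Mediator subunit gene Med1 (14.3 ± 2.12 TPM) led. The lowest were the PGC-1 genes, Ppargc1b (1.95 ± 0.459 TPM) and Ppargc1a (no counts). The chi-square criteria called 0 of the 10 corepressors and 0 of the 11 coactivators tested between libraries, with TMM or with DESeq2 size factors. An unadjusted p under 0.05 was found for 10 of each at ratios below 2.

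For each of the 3 most abundant members, the 2 protein-coding genes closest in level over the 3 libraries were found by the root mean square difference in log2(TPM + 1). Nearest to Nr3c1 were Slc16a7 (0.03) and Foxp1 (0.04), to Rxra Stoml1 (0.03) and Rab24 (0.05), and to Nr1d2 Rnf144b (0.01) and Heatr5b (0.03). Foxp1, for example, was at 19.65, 15.29 and 18.37 TPM, with replicate 2 the lowest as for Nr3c1. With 3 libraries of 1 group, this likeness describes level alone.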

How the data were processed

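Total RNA of the cytosolic fraction was measured in 3 libraries of 1 group, with replicate numbers from the labels. Per the deposited sample notes, 1 gene table and 1 transcript table per library rest on alignments to mm10 (annotation M21), and another transcript table was made directly from reads. None of the sources used here names an aligner or quantifier. Per the file headers, the deposited expected counts are the authors' estimates of the reads of each gene. The deposited TPM values are scaled by the authors for length and table total, and the deposited FPKM values for length and library total. The deposited percent values give the share of a gene held by each transcript. The deposited credibility bounds on TPM were treated as a score and used only as ranges.

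Rows for tRNA, spike-ins and phiX name no gene and were left out (0.418%, 0.248% and 0.165% of expected counts). After rounding, counts were scaled by TMM with edgeR 4.0.16 under R 4.3.3. Genes with a mean of 10 or more counts entered a chi-square test of homogeneity between libraries, and a gene was called at a Benjamini-Hochberg adjusted p under 0.05 where the highest library, with 0.5 counts added to each, was at least 2 times the lowest. edgeR's quasi-likelihood test could not be fitted with 1 group. The test was checked on simulated counts. Coordinates are those of GENCODE M21 on mm10. Scripts ran in Python 3.11.15 with pandas 2.3.3, scipy 1.17.1, numpy 2.4.6 and, for figures, matplotlib 3.10.9.

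Members, gene lists, tests and alternatives were chosen with earlier results of these data known. Named genes are the members, other receptors at 1 TPM or more in every library, the 3 highest and 2 lowest of each pathway list, the 2 nearest in level to each of the 3 highest members, and genes whose exons overlap a member. A few genes that this rule names are not reported here. Arntl, Clock, Rora, Ppara, Rxrg, Cyp27b1, Aldh1a1, Fabp4, Acadvl, Acaa2 and Angptl4 were chosen after their values were seen. So were the genes called within lists, the nuclear RNAs and the cell markers named. Alternatives were other quantifications, rescaling to protein-coding genes, other thresholds, filters and ratios, DESeq2 1.42.0 size factors and each replicate left out.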

Additional observations from a re-analysis of the deposited data

How the results depend on the processing

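The number of members at 1 TPM or more in every library was 5 with read-derived TPM, at 0.5 TPM and without each replicate. It was 6 with posterior mean TPM (Nr4a2 added), 7 after rescaling TPM to protein-coding genes (Nr4a2 and Nr1d1 added) and 4 at a threshold of 5 TPM (Ppard lost). The matching share of all protein-coding genes was computed only at 1 TPM in the deposited TPM of all 3 libraries. For the other nuclear receptors, 11 became 7 with read-derived TPM and 4 at 5 TPM. Read-derived mean levels were lower for every member but Vdr, for example 7.37 against 18.1 TPM for Nr3c1 and 2.19 against 5.36 TPM for Ppard. A threshold of 1 TPM was therefore stricter on that scale. The receptors lost with it, Thra, Nr2f6, Esr1 and Nr2c1, were the lowest of the 11. The part of the scale in this loss was not tested. The members called between libraries, 1 with the settings above, were 6 with no minimum ratio (Nr4a1, Nr1d2, Pparg, Ppard, Rxra and Nr3c1), when 75.6% of all genes tested were called. Leaving out a replicate gave 0 to 1, with 0 without replicate 1, when Nr4a1 had a ratio of 1.79 and an adjusted p of 0.000801 in the chi-square test. The other alternatives, DESeq2 size factors included, left Nr4a1 as the called member. The count over all genes, 2203, was 4034 at a mean of 1 or more counts, 3997 with no filter, 3704 at a ratio of 1.5, 10304 with no minimum ratio and 608 without replicate 3. No log2 ratio among the 7 pairs of members compared reversed, and 11 of 14 of their values under alternatives moved by less than 1 SD between replicates. So did 38 of 70 mean levels, the remainder being in read-derived, rescaled or posterior mean TPM or in FPKM, and 33 of 40 leading transcript shares. The 5 highest members kept their order with read-derived and posterior mean TPM. Below them Nr4a2 passed Nr1d1 with read-derived and posterior mean TPM, and Vdr passed Nr4a3 with the latter. FPKM and rescaled TPM differ from TPM by a single factor per library. They put mean levels on another scale and cannot change the order within a library. Over lists, DESeq2 size factors called 3 targets of LXR and the retinoid X receptor in place of 2. No paired analysis was possible because the libraries form 1 group. Depth limits Vdr, at 1 to 2 counts, and Nr4a1 in replicate 1, at 5 counts.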
